A study of Mus musculus with 6 samples.

Results

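Described here are 42 mouse genes of the early complement cascade and of blood coagulation, chosen as a list of symbols out of the 35970 symbols in a table of transcript levels. They are 17 complement genes, 23 coagulation genes, and Vtn and Clu, whose proteins hold back the terminal complement complex and which are given apart from both. All 42 had a row in the table, with the transcripts of a symbol summed. Of these, 41 had a mean over the 6 libraries of at least 1 TPM (transcripts per 1000000, a share of the library corrected for transcript length) and were tested among 10598 genes. Colec10 was below that level.

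The samples were livers of 6 mice, 3 with a guide RNA against Neurl1b and 3 with a non-targeting guide, in a CRISPR interference (CRISPRi) design where dCas9, a Cas9 that does not cut, blocks the gene its guide points to. All 6 mice were Fah-/-;dCas9+, so that the animals lacked the tyrosine breakdown enzyme Fah, and all received a hydrodynamic tail vein injection of 10 µg of a transposon plasmid together with the virus AAV8.TBG.PI.Cre.rBG, in which the hepatocyte promoter TBG drives Cre. The plasmid carried Fah, the ribosomal protein L10a fused to GFP, and the guide. Nitisinone, which protects liver cells that lack Fah, was given at 7.5 µg/mL until injection and then withheld, and the livers were collected 4 weeks later. Ribosomes were pulled out of 400 mg of liver with an antibody to GFP, and the poly(A) RNA on them was sequenced, so the values are of ribosome-bound mRNA. The sources used here give no age, sex or strain of the mice. TPM hold no depth, so how many reads stand behind a value is unknown.

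The liver makes most of the complement and clotting proteins of plasma. In complement, C1s, which C1r activates, cuts C4 and C2 after antibody is bound. Mannose-binding lectins and collectins start the same step through the MASP proteases, and all routes meet at C3. In coagulation, a chain of proteases, several of them dependent on vitamin K, ends with thrombin cutting fibrinogen into fibrin, which plasmin then dissolves. Fibrinogen, C3, C4 and factor B are also acute phase proteins, which hepatocytes make in larger amounts during inflammation.

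Neurl1b itself, a ubiquitin ligase gene of the Notch pathway, had 0.295, 0.351 and 0.307 TPM in the Neurl1b CRISPRi libraries, against 1.22, 0.897 and 0.688 TPM in the non-targeting libraries. The mean with the targeting guide was 33.9% of that with the non-targeting guide, and the groups did not overlap (exact two-sided permutation test, p = 0.1, the smallest that 3 against 3 can give). The hepatocyte marker Alb was at 11520 to 16040 TPM in the Neurl1b CRISPRi libraries and at 12740 to 31250 TPM in the non-targeting libraries. Of 6 hepatocyte markers analysed, 5 had negative log2 fold changes, among them Alb with -0.52 and Apob with -0.02, while Cps1 had 0.12. Fgb, among these 6 markers, is itself a member of the 42. Non-targeting mouse 2 was the highest library for 5 of the 6 markers, and without it 3 were negative. Non-targeting mouse 2 stood apart from all other libraries in acute phase genes outside the 42. Saa1, a serum amyloid gene, was at 33.0 to 42.2 TPM in the Neurl1b CRISPRi libraries, against 78.7, 2670 and 103 TPM in non-targeting mice 1, 2 and 3. Summed over 7 such genes (Saa1, Saa2, Hp, Lcn2, Orm1, Orm2 and Crp), the level was 2688, 2616 and 3758 TPM in the Neurl1b CRISPRi libraries, against 2896, 18990 and 4149 TPM in the non-targeting libraries. The neutrophil genes S100a8 and S100a9 were also highest in non-targeting mouse 2, at 27.1 and 20.7 TPM. So were Elane and Mpo, at the low levels of 0.907 and 1.34 TPM. The remaining listed neutrophil marker, Ly6g, was at 0 there and at 0.391 to 2.045 TPM in the Neurl1b CRISPRi libraries. The part of this library's state in the results below was not tested, and log2 fold changes without it are given beside those of the members.

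Most members had a lower mean log2 level with the Neurl1b guide, and none passed the test. Of the 41 tested, 32 had a negative and 9 a positive log2 fold change (limma on log2(TPM + 1), Neurl1b CRISPRi minus non-targeting). None was called at an adjusted p below 0.05, with a smallest adjusted p of 0.344, in a comparison that called 0.0189% of all genes. At an unadjusted p below 0.05 there were 7 members on the lower side (C4b, Mbl1, Fgg, F7, Klkb1, Serpind1 and Vtn), where 3.19% of all genes were, and 0 on the higher side, where 10.1% of all genes were. Groups that did not overlap were found for 12 members on the lower side, against 4.57% of all genes, and for 1 on the higher side, against 12.5% of all genes. The median log2 fold change was -0.20 over the 16 tested complement members and -0.35 over the 23 coagulation members, beside 0.18 over all genes. With libraries rescaled by the median of ratios, the median of all genes was -0.003 in place of 0.18, and the members' medians were -0.41 for complement and -0.55 for coagulation, with 39 of 41 members negative.

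One library held the highest value of most members. Non-targeting mouse 2 was the highest of the 6 libraries for 12 of 16 complement members and 22 of 23 coagulation members, against 11.1% of all genes tested. The 42 genes together took 1.10%, 1.13% and 1.17% of the TPM in the Neurl1b CRISPRi libraries, against 1.22%, 2.17% and 1.184% in the non-targeting libraries. Without non-targeting mouse 2 the median was -0.06 for complement and -0.10 for coagulation, beside 0.13 for all genes, and 24 of 41 members were negative, with 0 called. With median-of-ratios scaling and that mouse left out, the medians were -0.22 for complement and -0.25 for coagulation, beside -0.003 for all genes. There 33 of 41 members were negative and 0 were called. Without non-targeting mouse 1, in contrast, 6 members were called and all were lower in the Neurl1b CRISPRi libraries, namely C4b, Mbl1, Klkb1, Kng2, F7 and Vtn, where 2673 genes were called in all and 2.24% of genes on that side. Fewer hepatocytes in the pulldown and less mRNA per hepatocyte cannot be told apart in such samples.

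**Figure D1:**
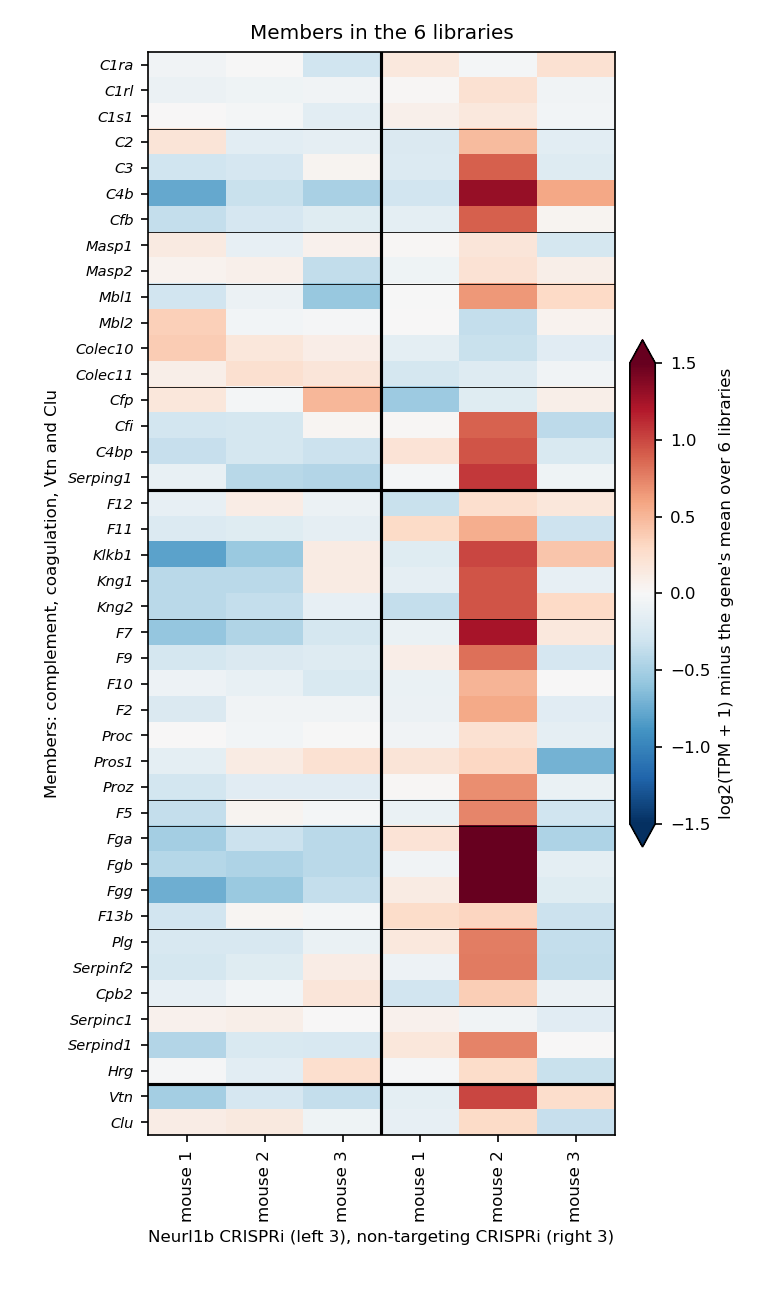
The 42 members (rows, grouped by role) in the 6 libraries (columns, Neurl1b CRISPRi on the left, non-targeting CRISPRi on the right); colour is log2(TPM + 1) minus the gene's mean over the 6 libraries, and thick lines divide complement, coagulation, and Vtn with Clu. The red column is non-targeting mouse 2, the highest library for 36 of the 41 tested members.

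Recognition molecules of the lectin pathway had log2 fold changes of both signs. Mbl1 and Mbl2 encode the mouse mannose-binding lectins A and C, which bind sugars on microbes. Mbl1 had 83.1, 95.6 and 67.9 TPM in the Neurl1b CRISPRi libraries, against 101, 160 and 125 TPM in the non-targeting libraries. The groups did not overlap, the log2 fold change was -0.63 with an SE of 0.21 (limma adjusted p = 0.344), and it was -0.46 without non-targeting mouse 2. Mbl2, the second most abundant of the 42 in the Neurl1b CRISPRi libraries, averaged 954 ± 153 TPM there and 829 ± 125 TPM in the non-targeting libraries (SD, n = 3 each). Its lowest value was in non-targeting mouse 2, at 686 TPM, and its log2 fold change of 0.20 became -0.01 with median-of-ratios scaling, or 0.07 if that mouse was left out. Within a library, where scaling cancels, Mbl2 was 13.6, 8.98 and 12.9 times Mbl1 in the Neurl1b CRISPRi libraries, against 8.80, 4.29 and 7.30 times in the non-targeting libraries. This ratio did not overlap between the groups (exact two-sided permutation p = 0.1, the smallest possible, and 0.4 adjusted over 4 ratios). It was chosen with the values of both genes known. It counts all transcripts, and 69.1% of Mbl1 TPM lay on a transcript annotated for nonsense-mediated decay, whereas all Mbl2 TPM were on a full-length one.

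The other recognition members, the collectins of liver, were on the higher side. Colec11, collectin kidney 1, had 5.44, 6.16 and 5.89 TPM in the Neurl1b CRISPRi libraries, against 4.07, 4.29 and 4.83 TPM in the non-targeting libraries. Its groups did not overlap and its log2 fold change was 0.34 with an SE of 0.17 (limma adjusted p = 0.394). It was 0.16 with median-of-ratios scaling, and 0.33 if non-targeting mouse 2 was left out. Colec10, collectin liver 1, which pairs with Colec11 in plasma, was under the filter with 0.970, 0.707 and 0.624 TPM in the Neurl1b CRISPRi libraries, against 0.367, 0.204 and 0.343 TPM in the non-targeting libraries. Both were low beside the other members, and the groups of both were apart. Cfp encodes properdin, the stabilizer of the alternative pathway convertase, which myeloid cells also make. It averaged 5.51 ± 1.21 TPM in the Neurl1b CRISPRi libraries and 3.87 ± 1.04 TPM in the non-targeting libraries (SD, n = 3 each), with overlapping groups and a log2 fold change of 0.43, and of 0.44 if non-targeting mouse 2 was left out.

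Markers of stellate cells and macrophages were on the higher side together with these 3 genes, as were 7846 of all 10598 genes tested. All 5 tested stellate cell markers of 7 listed had positive log2 fold changes, and their summed level was 31.2 to 43.5 TPM in the Neurl1b CRISPRi libraries, against 12.4 to 25.9 TPM in the non-targeting libraries. Among them Reln had 5.66, 5.15 and 5.40 TPM in the Neurl1b CRISPRi libraries, against 2.43, 2.08 and 2.82 TPM in the non-targeting libraries. All 5 tested Kupffer cell and macrophage markers of 7 listed were also positive, with a sum of 56.6 to 90.03 TPM in the Neurl1b CRISPRi libraries, against 39.2 to 67.8 TPM in the non-targeting libraries. None of these markers was at 0 in all libraries. The other lists differed in sign. Of 3 tested endothelial markers 1 was negative, Pecam1. It had 4.765, 6.29 and 5.28 TPM in the Neurl1b CRISPRi libraries, against 6.68, 6.975 and 8.49 TPM in the non-targeting libraries. Over full-length transcripts its log2 fold change was 0.42. Stab2 and Clec4g had log2 fold changes of 0.32 and 0.48. Lyve1, Kdr, Oit3 and F8, below the filter, also had higher means with the Neurl1b guide. Of 3 tested biliary markers 2 were negative, Sox9 and Spp1, while Krt19 had 0.95, or 0.51 if non-targeting mouse 2 was left out. Below the filter, Krt7 and Epcam had higher means with the Neurl1b guide and Cftr a lower one. All tested neutrophil, red cell and platelet markers were negative. Non-targeting mouse 2 was the highest library for all 3 red cell markers. The part of stellate cell and macrophage RNA in the values of Colec10, Colec11 and Cfp was not tested.

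The proteases of the lectin and classical pathways had log2 fold changes between -0.24 and 0.04. Masp1, with 7.56 ± 0.77 TPM in the Neurl1b CRISPRi libraries and 7.35 ± 1.25 TPM in the non-targeting libraries (SD, n = 3 each), had a log2 fold change of 0.04 that was -0.15 with median-of-ratios scaling. Masp2, the protease that cuts C4 and C2 for the lectins, had -0.16. C1ra and C1s1, the paired proteases of the classical pathway, had -0.24 and -0.13. If non-targeting mouse 2 was left out, the values were 0.14 for Masp1, -0.09 for Masp2, -0.32 for C1ra and -0.08 for C1s1. C1rl, a C1r-like protease, had 34.68, 35.31 and 35.45 TPM in the Neurl1b CRISPRi libraries, against 37.42, 43.28 and 35.48 TPM in the non-targeting libraries. The groups of C1rl did not overlap, but by a margin that is small beside the spread of the non-targeting libraries, and its log2 fold change was -0.13 with an SE of 0.15 (limma adjusted p = 0.658), or -0.05 if that mouse was left out. C1ra and C1s1 have near-identical copies, C1rb and C1s2, which were at most 0.205 and 0.0188 TPM in any library.

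Components of the C3 convertases were led by C4b, which encodes complement C4, the part of the classical and lectin convertase that binds to the target surface. C4b had 92.4, 125 and 112 TPM in the Neurl1b CRISPRi libraries, against 129, 390 and 236 TPM in the non-targeting libraries. The groups did not overlap, although Neurl1b CRISPRi mouse 2 and non-targeting mouse 1 were close. The mean was 2.29-fold lower in the Neurl1b CRISPRi libraries, with a log2 fold change of -1.06 (SE 0.36, limma adjusted p = 0.344). It was -0.67 when non-targeting mouse 2 was left out, and -1.47 (limma adjusted p = 0.0203) when non-targeting mouse 1 was. C4a, a close paralog that can share reads with C4b, had no row under that symbol, so the value of C4b is uncertain to that extent.

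Cfb, the alternative pathway counterpart of C2, had 268, 290 and 302 TPM in the Neurl1b CRISPRi libraries, against 311, 640 and 354 TPM in the non-targeting libraries. The groups did not overlap, with a log2 fold change of -0.53 (SE 0.26, limma adjusted p = 0.399) that was -0.21 without non-targeting mouse 2. C3, where the pathways meet, had 587, 608 and 746 TPM in the Neurl1b CRISPRi libraries, against 629, 1350 and 633 TPM in the non-targeting libraries. Only non-targeting mouse 2 was above the Neurl1b CRISPRi range, and the log2 fold change of -0.34 became 0.03 without it. C2, at 8.63 ± 1.36 TPM in the Neurl1b CRISPRi libraries and 9.30 ± 2.93 TPM in the non-targeting libraries (SD, n = 3 each), had a log2 fold change of -0.07, and of 0.15 without that mouse.

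Of the regulators, 2 had groups that did not overlap. Serping1 encodes the C1 inhibitor, which also blocks factor XII and plasma kallikrein. It had 106, 85.5 and 84.1 TPM in the Neurl1b CRISPRi libraries, against 112, 240 and 109 TPM in the non-targeting libraries (log2 fold change -0.64, SE 0.30, limma adjusted p = 0.389). C4bp, a cofactor for the breakdown of C4b protein, had 87.0, 92.1 and 88.6 TPM in the Neurl1b CRISPRi libraries, against 128, 214 and 94.1 TPM in the non-targeting libraries (log2 fold change -0.62, SE 0.27, limma adjusted p = 0.381). For both genes the nearest non-targeting library lay just above the Neurl1b CRISPRi range, and without non-targeting mouse 2 the log2 fold changes were -0.27 and -0.30. Cfi, the protease that needs such cofactors, had -0.34, and 0.01 without that mouse.

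**Figure D2:**
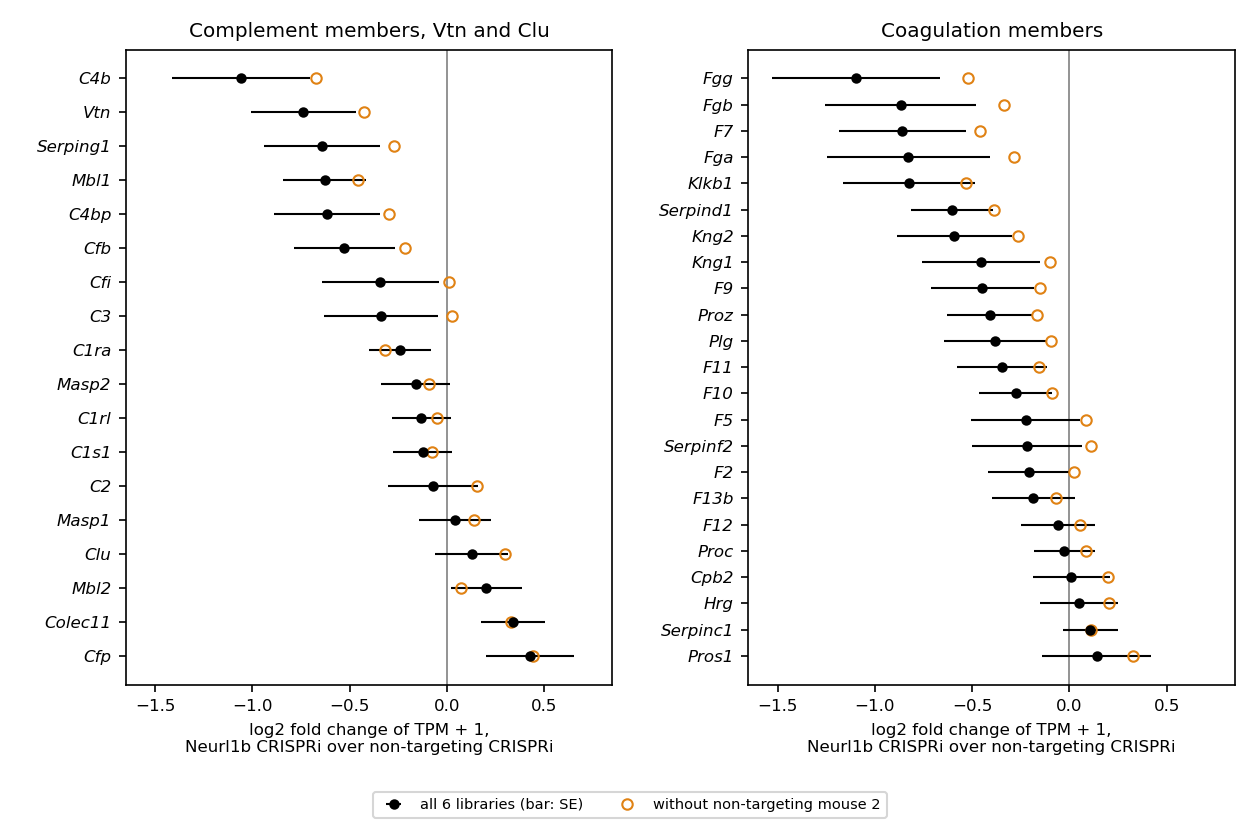
Log2 fold change of TPM + 1 (x axis, Neurl1b CRISPRi over non-targeting CRISPRi) of the 41 tested members (y axis), with complement members, Vtn and Clu on the left and coagulation members on the right; filled points with SE bars use all 6 libraries, and open points leave out non-targeting mouse 2. Fgg at -1.10 and C4b at -1.06 are the most negative, and 24 of the 41 open points are below 0.

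In coagulation, the fibrinogen genes Fgg and Fgb had the most negative values. Fga, Fgb and Fgg encode the alpha, beta and gamma chains, which are joined into fibrinogen and are next to each other on chromosome 3, with 0 protein-coding genes between them. All 3 chains were highest in non-targeting mouse 2, as were 22 of the 23 coagulation members, and the part of promoter letters in this was not tested. The 250 bases before the start of each gene are shown from RefSeq (GRCm38.p6), 5′ to 3′ on the strand of the gene. They are chr3:83025903-83026152 (+) for Fga, chr3:83049864-83050113 (-) for Fgb and chr3:83007474-83007723 (+) for Fgg. Capitals mark matches to 3 motifs of liver and acute phase transcription, searched on both strands: GTTAAT (a part of the HNF1 site), CTGGGA (the type II IL-6 response element) and TTGCNNAA (a C/EBP site).
Fga: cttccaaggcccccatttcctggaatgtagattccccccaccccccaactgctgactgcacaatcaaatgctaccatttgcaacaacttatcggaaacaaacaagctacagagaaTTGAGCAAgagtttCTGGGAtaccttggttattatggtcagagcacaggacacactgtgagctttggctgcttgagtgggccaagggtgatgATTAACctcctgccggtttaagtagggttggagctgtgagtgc
Fgb: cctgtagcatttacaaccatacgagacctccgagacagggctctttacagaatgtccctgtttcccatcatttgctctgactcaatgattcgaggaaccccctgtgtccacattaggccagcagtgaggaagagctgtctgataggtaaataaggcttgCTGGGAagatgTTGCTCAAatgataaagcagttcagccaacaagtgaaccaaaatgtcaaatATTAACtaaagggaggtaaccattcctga
Fgg: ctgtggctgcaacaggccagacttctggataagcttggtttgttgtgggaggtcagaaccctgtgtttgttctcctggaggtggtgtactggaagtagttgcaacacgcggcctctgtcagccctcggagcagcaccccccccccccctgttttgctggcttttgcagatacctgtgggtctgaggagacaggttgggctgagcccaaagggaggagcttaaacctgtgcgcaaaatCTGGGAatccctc
In Fga the first bases of the matches lay at -43 for HNF1, -121 for the IL-6 element and -135 for C/EBP, and in Fgb at -29, -91 and -80. Fgg matched the IL-6 element alone, at -13. Among 32851 mouse promoter windows of 250 bases, 6.43% held the HNF1 letters, 27.0% the IL-6 letters and 9.56% the C/EBP letters. Of the 31 members with a RefSeq promoter, 8 (25.8%) held the first, 14 (45.2%) the second and 10 (32.3%) the third. A match describes the letters and is no measured binding site.

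Fga had 467, 530 and 499 TPM in the Neurl1b CRISPRi libraries, against 766, 1878 and 482 TPM in the non-targeting libraries. Its groups overlapped, since non-targeting mouse 3 lay among the Neurl1b CRISPRi values. Fgb had 405, 393 and 410 TPM in the Neurl1b CRISPRi libraries, against 526, 1534 and 492 TPM in the non-targeting libraries. Fgg had 488, 551 and 632 TPM in the Neurl1b CRISPRi libraries, against 883, 2654 and 713 TPM in the non-targeting libraries. For Fgb and Fgg the groups did not overlap, and for all 3 chains non-targeting mouse 2 was the highest by far, with at least 2.45 times the next library. The log2 fold changes were -0.83 for Fga (SE 0.42, limma adjusted p = 0.404), -0.87 for Fgb (SE 0.39, adjusted p = 0.381) and -1.10 for Fgg (SE 0.43, adjusted p = 0.352). Without non-targeting mouse 2 they were -0.29, -0.34 and -0.52. Within a library, Fga was 1.15, 1.35 and 1.22 times Fgb in the Neurl1b CRISPRi libraries, against 1.45, 1.22 and 0.9801 times in the non-targeting libraries (exact two-sided permutation p = 1.0). Fgg was 1.21, 1.40 and 1.54 times Fgb in the Neurl1b CRISPRi libraries, against 1.68, 1.73 and 1.45 times in the non-targeting libraries (exact two-sided permutation p = 0.2, and 0.4 adjusted over 4 ratios). F13b, the carrier subunit of the factor that crosslinks fibrin, had -0.19, or -0.07 if that mouse was left out.

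**Figure D3:**
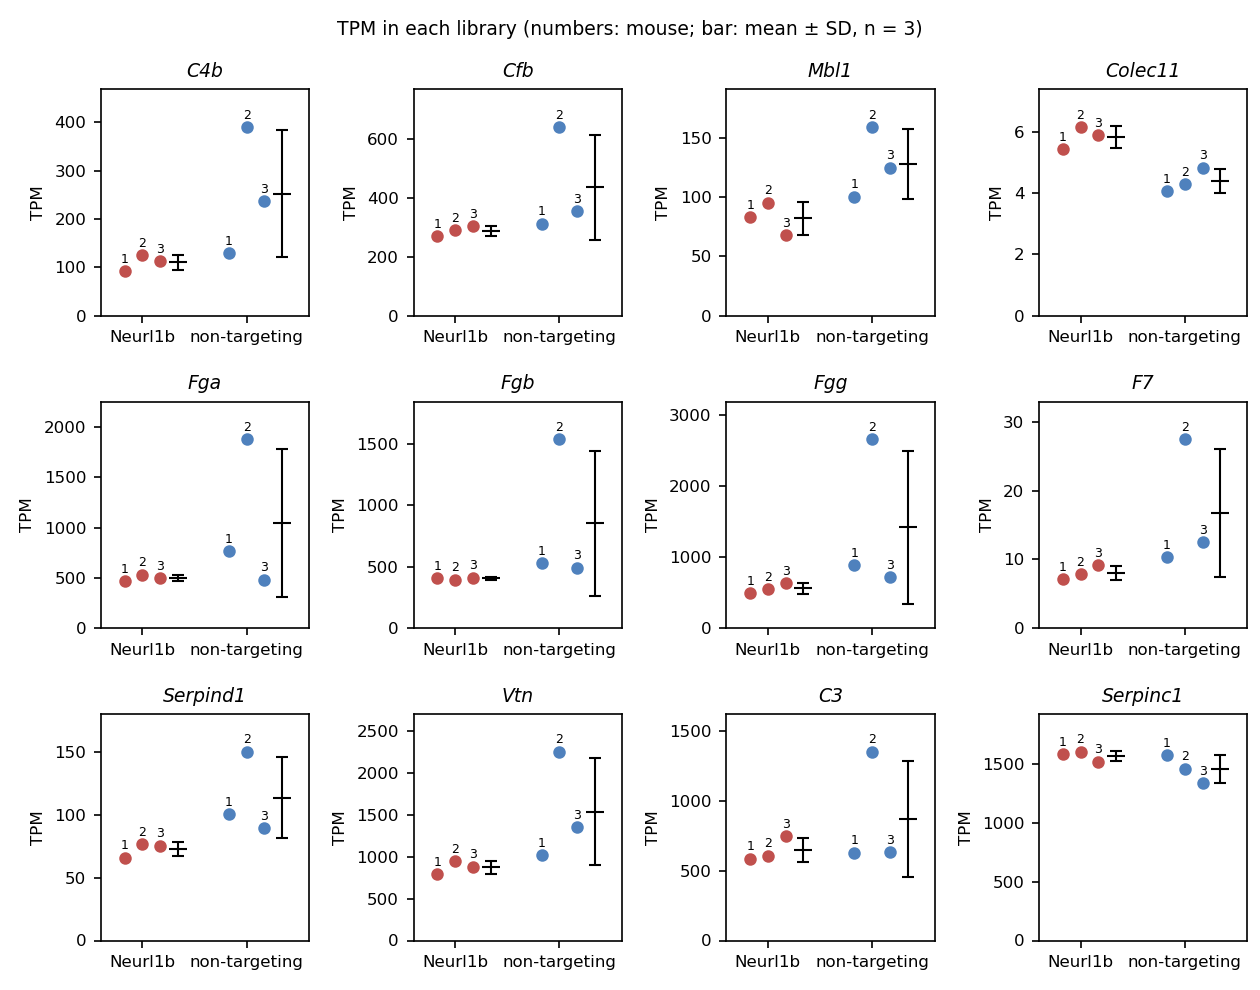
TPM (y axis, from 0) of 12 members in each library, Neurl1b CRISPRi (red) left of non-targeting CRISPRi (blue), with the mouse number over each point and the mean ± SD (n = 3) as a bar. Non-targeting mouse 2 is the highest point for 10 of the 12 genes, the exceptions being Colec11 and Serpinc1, while the Neurl1b CRISPRi points lie close together.

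Among the vitamin K-dependent factors, 6 of 7 had negative log2 fold changes, from -0.86 to -0.03, and all 7 with median-of-ratios scaling. F7, the protease that tissue factor activates to start clotting, was the most negative. It had 7.15, 7.86 and 9.13 TPM in the Neurl1b CRISPRi libraries, against 10.3, 27.5 and 12.6 TPM in the non-targeting libraries, with no overlap (log2 fold change -0.86, SE 0.33, limma adjusted p = 0.349). It was -0.46 when non-targeting mouse 2 was left out, and -1.13 (limma adjusted p = 0.0494) when non-targeting mouse 1 was. Proz, protein Z, the cofactor of an inhibitor of factor Xa, had 40.4, 43.5 and 43.7 TPM in the Neurl1b CRISPRi libraries, against 49.8, 80.1 and 45.9 TPM in the non-targeting libraries, also with no overlap (log2 fold change -0.41, SE 0.22, limma adjusted p = 0.416), and with -0.17 if non-targeting mouse 2 was left out. F7, F10 and Proz are neighbours on chromosome 8 with 0 protein-coding genes between them, and F10 had -0.28. F9 had -0.45 and F2, prothrombin, -0.21. The anticoagulants were near 0, with -0.03 for Proc, which encodes protein C, and 0.14 for Pros1, its cofactor protein S, whose value was -0.06 with median-of-ratios scaling. F5, the cofactor that protein C inactivates, had -0.22. If non-targeting mouse 2 was left out, F9 had -0.15 and F10 -0.09, while F2 had 0.02, Proc 0.08, Pros1 0.33 and F5 0.08.

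All 5 contact system genes had negative log2 fold changes, although those of F12, Kng1 and Kng2 were positive over full-length transcripts. Such transcripts held 57.5% of the TPM of F12, but 4.6% of that of Kng1 and 0.46% of that of Kng2. Klkb1 encodes prekallikrein, which activates factor XII and releases bradykinin from kininogen. It had 8.29, 10.0 and 16.6 TPM in the Neurl1b CRISPRi libraries, against 13.3, 31.4 and 20.6 TPM in the non-targeting libraries. The groups overlapped through Neurl1b CRISPRi mouse 3 and non-targeting mouse 1 (log2 fold change -0.83, SE 0.34, limma adjusted p = 0.363). Its neighbour F11, next to it on chromosome 8, had -0.35. The kininogen genes Kng1 and Kng2, which also lie side by side and share sequence, had -0.46 and -0.59, and -0.50 when summed. F12, the factor that starts the contact route, had -0.06. If non-targeting mouse 2 was left out, the values were -0.53 for Klkb1, -0.16 for F11, -0.10 for Kng1, -0.27 for Kng2 and 0.05 for F12. If non-targeting mouse 1 was left out, Kng2 had an adjusted p of 0.0347 and Klkb1 one of 0.0499.

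The inhibitors and modulators of thrombin had log2 fold changes of both signs. Serpinc1, antithrombin, was the most abundant of the 42 in the Neurl1b CRISPRi libraries, with 1571 ± 43.9 TPM there and 1461 ± 119 TPM in the non-targeting libraries (SD, n = 3 each). Its log2 fold change was 0.11, also if non-targeting mouse 2 was left out, but -0.11 after median-of-ratios scaling. Serpind1, heparin cofactor II, had 65.9, 76.3 and 75.2 TPM in the Neurl1b CRISPRi libraries, against 101, 150 and 89.4 TPM in the non-targeting libraries. The groups did not overlap, and the log2 fold change was -0.60 with an SE of 0.21 (limma adjusted p = 0.344), or -0.39 without non-targeting mouse 2. Hrg, a heparin-binding plasma protein, had 0.05. In fibrinolysis, Plg, plasminogen, had -0.38 and Serpinf2, its inhibitor antiplasmin, -0.22, while Cpb2, which trims fibrin so that less plasminogen binds, had 0.01. Over full-length transcripts Plg had -0.38, Serpinf2 -0.26 and Cpb2 0.44. For Cpb2 such transcripts held 54.2% of the TPM. They had 303.5, 297.1 and 335.7 TPM in the Neurl1b CRISPRi libraries, against 258.5, 289.1 and 162.0 TPM in the non-targeting libraries, with no overlap. If non-targeting mouse 2 was left out, Plg had -0.10, Serpinf2 0.11, Cpb2 0.20 and Hrg 0.20.

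Vtn encodes vitronectin, which binds the forming terminal complex and also steadies the plasminogen activator inhibitor. It had 794, 949 and 880 TPM in the Neurl1b CRISPRi libraries, against 1016, 2251 and 1349 TPM in the non-targeting libraries. The groups did not overlap, with a log2 fold change of -0.74 (SE 0.27, limma adjusted p = 0.344) that was -0.42 without non-targeting mouse 2. In the non-targeting libraries Vtn had the highest mean of all 42 genes, and in the Neurl1b CRISPRi libraries it was the fourth. That first rank rested on non-targeting mouse 2. Without that mouse the non-targeting mean was 1182 TPM for Vtn and 1459 TPM for Serpinc1. Clu, clusterin, which keeps the terminal complex soluble, averaged 952 ± 73.2 TPM in the Neurl1b CRISPRi libraries and 884 ± 201 TPM in the non-targeting libraries (SD, n = 3 each). Its log2 fold change of 0.13 was -0.09 with median-of-ratios scaling, and 0.30 if non-targeting mouse 2 was left out.

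A part of these levels came from transcripts with less than 80% of the gene's longest coding length. Not all of these lack a part of the usual protein. The 557-residue Fga chain, the usual alpha chain, is among them and is not counted as full-length here. By the GENCODE vM21 annotation, transcripts with at least 80% of the gene's longest coding length held 59.2% to 61.2% of the members' TPM in the Neurl1b CRISPRi libraries and 55.2% to 60.3% in the non-targeting libraries. Retained-intron transcripts held 4.99%, 6.22% and 5.86% in the Neurl1b CRISPRi libraries, against 5.33%, 8.57% and 11.03% in the non-targeting libraries. Over all genes such transcripts held 4.60%, 4.92% and 5.05% in the Neurl1b CRISPRi libraries, against 4.61%, 6.48% and 5.84% in the non-targeting libraries, so the share of all genes was also highest in non-targeting mice 2 and 3. Full-length transcripts held 71.3% to 75.3% of the TPM of all genes in the 6 libraries. C4b had 79.6% of its TPM on a retained-intron transcript. This transcript had 63.7, 96.3 and 82.1 TPM in the Neurl1b CRISPRi libraries, against 92.6, 322.5 and 206 TPM in the non-targeting libraries. The full-length C4b transcript encodes 1738 residues. It had 28.7, 28.2 and 30.35 TPM in the Neurl1b CRISPRi libraries, against 36.1, 67.9 and 29.9 TPM in the non-targeting libraries. The full-length values overlapped between the groups, and the log2 fold change over them was -0.51 in place of -1.06.

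**Figure D4:**
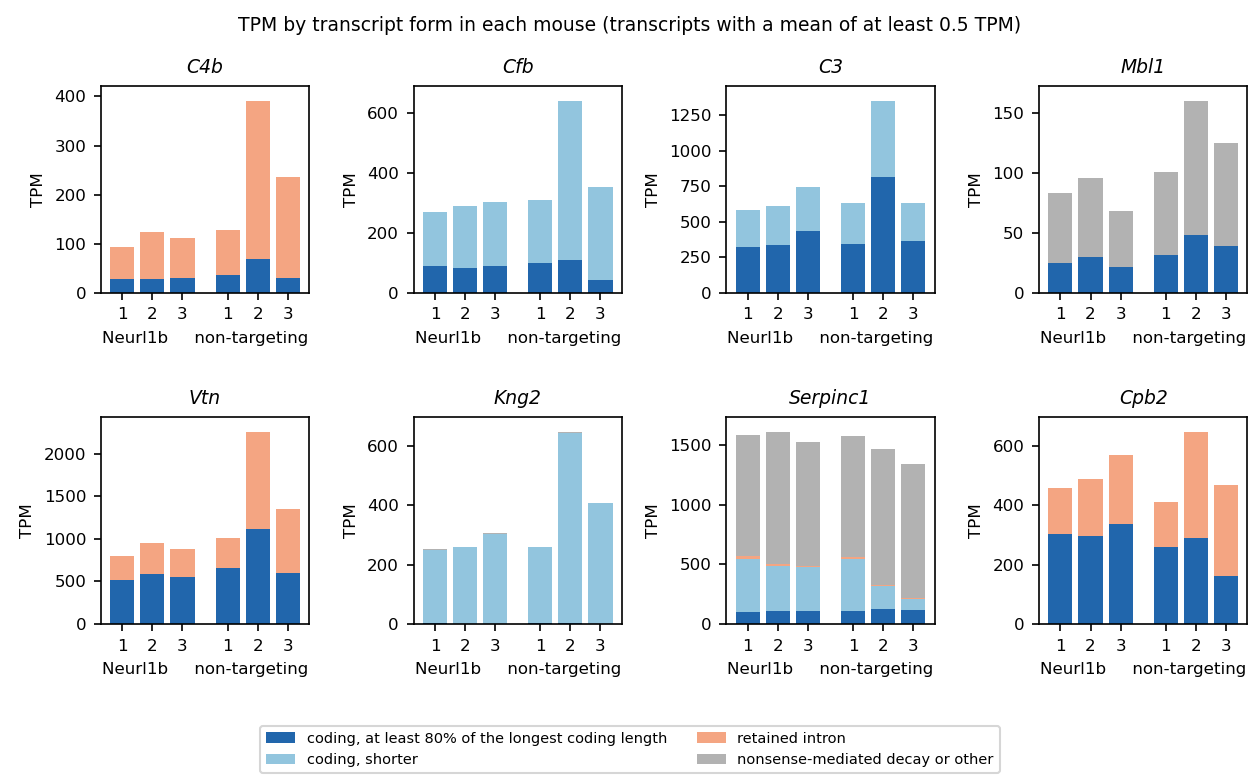
TPM (y axis, from 0) of 8 members in each mouse, Neurl1b CRISPRi left of non-targeting CRISPRi, divided by the annotated form of the transcript. The C4b bars of non-targeting mice 2 and 3 are tall mainly through the retained-intron form, at 322.5 and 206 TPM, and most Serpinc1 TPM lie on a transcript annotated for nonsense-mediated decay.

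Vtn had a retained-intron form too, with 275, 357 and 325.5 TPM in the Neurl1b CRISPRi libraries, against 347, 1130 and 754 TPM in the non-targeting libraries. Its full-length form, at 515, 588 and 549 TPM in the Neurl1b CRISPRi libraries, against 661.5, 1116 and 594 TPM in the non-targeting libraries, did not overlap, and the log2 fold change over it was -0.47. For Serpinc1 the full-length transcript, of 465 residues, held 7.32% of the gene's TPM, and a transcript annotated for nonsense-mediated decay held 70.6%. For Fga, 94.9% lay on the 557-residue chain, the usual form of the alpha chain, and 5.09% on the extended 789-residue chain. The extended chain had 20.4, 27.3 and 22.2 TPM in the Neurl1b CRISPRi libraries, against 44.6, 84.2 and 36.6 TPM in the non-targeting libraries, with no overlap. For Masp2, 63.5% lay on a 185-residue form without the protease part. Counted over full-length transcripts alone, 28 of 41 members had negative log2 fold changes and 0 were called, and C2, Cfb, F12, Kng1, Kng2 and Serpinc1 had the opposite sign. For Kng1 and Kng2 these transcripts held 4.6% and 0.46% of the gene's TPM. How kallisto divided reads among these overlapping transcripts cannot be checked from TPM.

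The rest of both pathways was read from lists of genes outside the 42. Of 24 other complement genes, 14 were tested, 8 with negative and 6 with positive log2 fold changes and 0 called. Their median was -0.27, or -0.13 if non-targeting mouse 2 was left out, and it turned to 0.13 over full-length transcripts. The C8 and C9 genes, whose products form the pore in the target membrane, were on the lower side. C9 had 57.6, 64.4 and 42.4 TPM in the Neurl1b CRISPRi libraries, against 105, 334 and 182 TPM in the non-targeting libraries. For C9 limma gave -1.76 (SE 0.38, adjusted p = 0.269), and the log2 fold changes of C8a and C8b, whose groups did not overlap either, were -2.93 and -1.19. If non-targeting mouse 2 was left out, the values were -1.34 for C9, -2.13 for C8a and -0.90 for C8b. Fcna, a ficolin of macrophages, was on the higher side with 15.8, 11.6 and 9.30 TPM in the Neurl1b CRISPRi libraries, against 4.42, 5.82 and 5.81 TPM in the non-targeting libraries. Of 22 other coagulation genes, 14 were tested, 7 in each direction and 0 called. Their median was 0.03, or 0.19 if that mouse was left out, and -0.18 with median-of-ratios scaling. Hgfac, a protease gene of hepatocytes related to F12, had a log2 fold change of -0.998 without overlap, -0.57 if that mouse was left out, and -0.45 with overlapping groups over full-length transcripts. Vwf, the von Willebrand factor gene of endothelium, had 1.41, 2.31 and 1.92 TPM in the Neurl1b CRISPRi libraries, against 1.03, 1.21 and 0.831 TPM in the non-targeting libraries. Plat, which encodes tissue plasminogen activator, had 2.21 and Plaur, the urokinase receptor gene, 1.11, both with overlapping groups, and 1.39 and 0.79 if that mouse was left out.

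The 13 members listed here as acute phase genes were C3, C4b, C4bp, Cfb, Fga, Fgb, Fgg, Mbl2, Masp1, Serpinf2, Serping1, Cpb2 and F5. They had a median of -0.53 on the log2 fold change scale, against -0.23 in the 29 others, of which 28 were tested. Without non-targeting mouse 2 these medians were -0.21 and -0.08. Negative values were found for 10 of the 13 and for 22 of the 28. Summed, the acute phase members had 4275, 4217 and 4557 TPM in the Neurl1b CRISPRi libraries, against 4992, 10610 and 4672 TPM in the non-targeting libraries. The other members had 6754, 7057 and 7150 TPM in the Neurl1b CRISPRi libraries, against 7217, 11100 and 7170 TPM in the non-targeting libraries. In both sums non-targeting mouse 2 was far above the other libraries, and the other 2 non-targeting libraries lay above the Neurl1b CRISPRi range, by a small margin in the second sum.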

How the data were processed

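Per the submitters' processing notes, the authors made the TPM with kallisto and the genome build mm39. Its version, filters and transcript set: not given in the sources used here. The authors deposited TPM for 117486 transcripts, each library summing to 1000000, with a symbol beside each. Transcripts were summed by symbol, and 168 without a symbol (116 to 143 TPM per library) were left out. Genes with a mean of at least 1 TPM (10598) were tested by limma 3.58.1 (R 4.3.3) on the scale log2(TPM + 1) (trended prior, two-sided, Neurl1b CRISPRi minus non-targeting, Benjamini-Hochberg over all genes tested, called at an adjusted p below 0.05). The test was first tested on simulated data. Folds are ratios of mean TPM, and the log2 scale understates the change of low genes. Neurl1b and Colec10 were below the filter. Single values were compared by exact permutation.

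The members, the lists and the rule for named genes were chosen with earlier results of these data known. By that rule, all 6 values are printed for members with an unadjusted p below 0.05 or groups that do not overlap, and for fibrinogen, C3 and members below the filter; of other pathway genes at most 4 per list are named, taken by the smallest p. Mice were separate animals, so p-values measure the spread between mice. Transcript types and coding lengths came from GENCODE vM21, an annotation of another build, by identifier without version (99.04% found). The alternatives were a pseudocount of 0.1, no filter or a mean of at least 5 TPM, median-of-ratios scaling, the mouse number as a block, each mouse left out, an adjusted p below 0.1, summed paralogs and, chosen after seeing the data, full-length transcripts alone and non-targeting mouse 2 left out with median-of-ratios scaling.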

Additional observations from a re-analysis of the deposited data

How the results depend on the processing

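Members called stayed at 0 under a pseudocount of 0.1, no filter, a mean of at least 5 TPM, median-of-ratios scaling, summed paralogs, full-length transcripts and an adjusted p below 0.1, ranged from 0 to 6 with each mouse left out, and were 4 (C4b, Mbl1, Kng2 and Vtn) with median-of-ratios scaling when non-targeting mouse 1 was left out. The complement median was -0.41 with that scaling and -0.58 with that mouse left out as well, where the coagulation median was -0.75. The mouse numbers do not pair the mice: same-numbered libraries deviated with correlations of 0.0614, -0.096 and -0.277. With the number as a replicate block 0 members were called, the smallest adjusted p was 0.180, and the log2 fold changes were unaltered by construction.

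The sign turned with median-of-ratios scaling for Masp1 (-0.15), Mbl2 (-0.012), Pros1 (-0.061), Cpb2 (-0.20), Serpinc1 (-0.11), Hrg (-0.16) and Clu (-0.087). With non-targeting mouse 1 left out as well it turned for Masp1 (-0.25), Mbl2 (-0.10), Cfp (-0.033), Pros1 (-0.059), Cpb2 (-0.48), Serpinc1 (-0.19), Hrg (-0.30) and Clu (-0.26), and with non-targeting mouse 2 left out for C2 (0.012), Mbl2 (-0.084) and Serpinc1 (-0.045). Over full-length transcripts it turned for C2 (0.30), Cfb (0.14), F12 (0.27), Kng1 (0.062), Kng2 (0.17) and Serpinc1 (-0.13). With each mouse left out, log2 fold changes ran from -0.20 to 0.15 for C2, -0.52 to 0.027 for C3, -0.62 to 0.013 for Cfi, -0.014 to 0.30 for Clu, -0.13 to 0.20 for Cpb2, -0.24 to 0.054 for F12, -0.35 to 0.024 for F2, -0.43 to 0.084 for F5, -0.11 to 0.20 for Hrg, -0.076 to 0.14 for Masp1, -0.10 to 0.084 for Proc, -0.18 to 0.33 for Pros1 and -0.46 to 0.11 for Serpinf2. The cause was not tested. C4b with its paralog C4a was not run, since C4a had no row under that symbol. TPM give no depth, so the precision of low members such as Colec10 is unknown.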
